A study of Homo sapiens with 15 samples.

Results

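The 47 genes described here encode the machinery of DNA replication and the regulators that start it at the passage from G1 into S phase, as a list of targets of the E2F transcription factors. They were found on the arrays by gene name. They account for 47 of 30484 gene names and for 61 of 41000 probes. A gene was represented by its brightest probe, and 34 of the genes had 1 probe, 12 had 2 and POLE had 3. All 47 representative probes were well above background in both channels on all 15 arrays, so that every gene entered the tests.

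Replication is prepared in G1, when the origin recognition complex (ORC1L, ORC6L), CDC6 and CDT1 load the MCM2 to MCM7 helicase onto DNA. It is then started by the kinases CDC7-DBF4 and cyclin-CDK, which bring in CDC45L and the GINS complex, after which the polymerases copy the strands on the PCNA clamp. Transcription of most of these genes rises before S phase, when E2F factors are released from the retinoblastoma proteins, and the level of their mRNAs is widely used as a sign of how many cells are cycling.

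Each array compared A549 cells, an established human lung adenocarcinoma line, transfected with a synthetic miRNA (overexpressing cells, labeled with Cy5) with A549 cells transfected with an LNA-modified antagomir of the same miRNA (knocked-down cells, labeled with Cy3). The 5 miRNAs were miR-181d and miR-565, then miR-574-3p, and lastly miR-629* together with miR-766, with 3 arrays each, at 20 nM of oligonucleotide and 24 h after transfection. The study asked which mRNAs respond to these radiation-responsive miRNAs. The dyes were never exchanged and the arrays hold no untransfected or control-transfected cells. The labels do not say whether the 3 replicates are separate transfections, so that p-values measure only the spread between these arrays. The antagomir cells differ from one miRNA to the next and are therefore not a common control. In such bulk RNA, fewer cells in S phase and less mRNA per cell cannot be told apart.

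Mature miRNAs are shown because they define the groups, as given by RefSeq on GRCh38.p14, with the seed (bases 2 to 8) in capitals.
miR-181d (hsa-miR-181d-5p, chr19:13874910-13874932, plus strand): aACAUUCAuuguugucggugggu
miR-574-3p (hsa-miR-574-3p, chr4:38868092-38868113, plus strand): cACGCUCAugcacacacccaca
miR-629* (now hsa-miR-629-3p, chr15:70079387-70079408, minus strand): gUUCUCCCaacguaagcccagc
No seed is shared between them. miR-565 and miR-766 are named only.

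Between 68.1% and 75.5% of the probes of an array were well above background in the overexpressing channel, and the number of arrays limits the precision. All 9 epithelial and A549 markers on the array were well above background on all 15 arrays in both channels. Of 10 markers of other cell types, PTPRC, COL3A1, PECAM1 and CDH5 were so on no array, whereas CD3E, CD14 and COL1A1 were so on all 15, with signals of 20.4 to 57.4, 119 to 292 and 26.9 to 57.4. VWF, an endothelial marker at signals of 6.86 to 21.3, had a log2 ratio of 0.69 for miR-565 (adjusted p = 0.00949), and on 14 arrays it was called higher for all 5 miRNAs (0.29 to 0.46). Its part in the results was not tested. Replicate 1 of miR-565 stood apart from the rest: the SD of its log2 ratios over all probes was 0.867, against 0.391 to 0.556 on the other 14 arrays. Results are therefore given with it (15 arrays) and without it (14 arrays). Slide 1 held the 3 arrays of miR-181d and this array. Slide 2 held replicates 2 and 3 of miR-565 and replicates 1 and 2 of miR-574-3p. Slide 3 held replicate 3 of miR-574-3p and the arrays of miR-629*, and slide 4 those of miR-766. On 14 arrays slide 1 thus held miR-181d alone, so that slide and miRNA cannot be told apart for miR-181d there.

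The ratios of the 47 genes stayed close to 1. The log2 ratio of the overexpressing to the knocked-down signal had a median over the genes of 0.016 for miR-181d, -0.103 for miR-565, -0.01 for miR-574-3p, -0.026 for miR-629* and -0.03 for miR-766. The median of all 23012 genes tested was 0.021, 0.038, 0.008, 0.028 and 0.012 in the same order. Without replicate 1 the median for miR-565 was -0.052. The lowest mean ratio of any member was 0.607, for CCNE2 with miR-565, and the highest was 1.31, for TYMS with miR-181d. That of CCNE2 rested on replicate 1, with log2 ratios of -1.79 there and -0.23 and -0.15 on the others. For the other miRNAs the lowest was 0.612, for ORC6L with miR-629*. No member met the threshold of the methods for a suppressed mRNA, a ratio under 0.5 with a p of 0.001 or less before adjustment and a knocked-down signal of 20 or more.

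**Figure D1:**
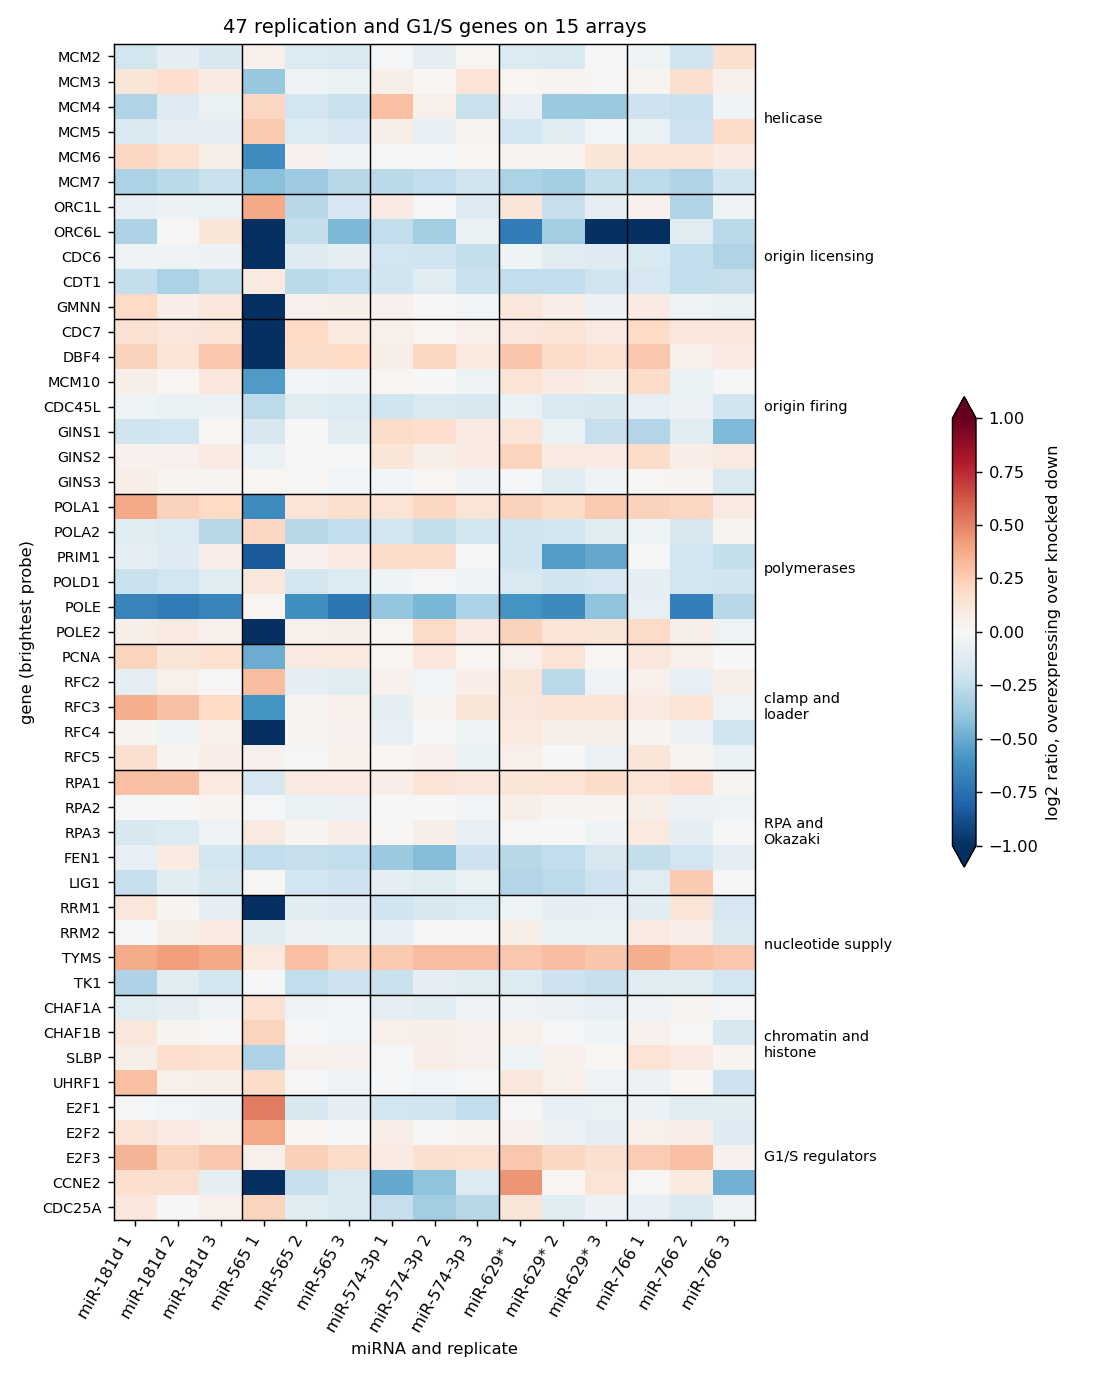
Log2 ratio (overexpressing over knocked down, color) of the brightest probe of each of the 47 genes (rows, grouped by role) on each of the 15 arrays (columns). Colors are at their limit beyond -1 and 1; the column of miR-565 replicate 1 has values from -1.79 to 0.52, while TYMS is positive and MCM7 negative in every column.

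Few of these small ratios passed the test. A gene was called when the limma adjusted p of its ratio was under 0.05. On 15 arrays 8 of the 47 genes were called for at least 1 miRNA, a count whose share among all genes was not computed. For miR-181d, TYMS and E2F3 were called higher in the overexpressing cells and POLE and MCM7 lower, where 2.95% of all genes were called higher and 1.46% lower. For miR-565, TYMS was higher (8.69% of all genes) and MCM7, FEN1 and CDC45L were lower (2.76%). For miR-574-3p, TYMS was higher (2.32%) and FEN1, CDC25A and MCM7 were lower (1.78%). For miR-629*, TYMS was higher (5.84%) and POLE, MCM7, LIG1 and FEN1 were lower (3.02%). For miR-766, TYMS was higher (0.917%) and no member was lower (0.23%). There 12 members had an unadjusted p under 0.05, without a computed share of all genes. With the slide as a random block no member was called for any miRNA. With so few members called, a gene more or less moves each share by 2.13 percentage points.

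TYMS, the thymidylate synthase that makes dTMP from dUMP, was the 1 member called for all 5 miRNAs, a pattern met upward by 0.365% and downward by 0.0174% of all genes. Its probe lies at chr18:663276-663335 (NCBI36, plus strand). Its log2 ratios were 0.37, 0.42 and 0.38 for miR-181d, 0.10, 0.30 and 0.22 for miR-565, 0.26, 0.31 and 0.31 for miR-574-3p, 0.27, 0.31 and 0.28 for miR-629*, and 0.36, 0.30 and 0.27 for miR-766. All 15 values were positive, and the lowest was that of replicate 1 of miR-565. The mean log2 ratio was 0.39 for miR-181d (standard error 0.05, adjusted p = 0.00858) and 0.20 for miR-565 (standard error 0.05, adjusted p = 0.029). In signal, the overexpressing miR-181d cells had 17600 ± 2180 and the knocked-down cells 13500 ± 1860 (SD, n = 3). The miRNAs were not shown to differ in this ratio, with adjusted p of 0.318 to 1 for each miRNA against the mean of the other 4. With the slide as a random block its log2 ratios were 0.2 to 0.47 and none was called (adjusted p = 0.0824 for miR-181d, up to 1 for miR-766). Leaving out any 1 of the 3 arrays of a miRNA also ended the call of TYMS, except for miR-565, where it held without replicate 1.

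MCM7, a subunit of the replicative helicase, was lower in the overexpressing cells on all 15 arrays, with log2 ratios from -0.42 to -0.20. Its probe lies at chr7:99528456-99528515 (NCBI36, minus strand). The mean log2 ratio was -0.27 for miR-181d (adjusted p = 0.0259), -0.35 for miR-565 (adjusted p = 0.00694), -0.24 for miR-574-3p (adjusted p = 0.0361), -0.30 for miR-629* (adjusted p = 0.0124) and -0.25 for miR-766 (adjusted p = 0.0583), each with a standard error of 0.056. No other helicase subunit was called on 15 arrays. MCM3 and MCM6 had means of 0.13 and 0.14 for miR-181d, MCM2 and MCM5 of -0.15 and -0.11.

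On 15 arrays the largest falls among called members were those of POLE, the catalytic subunit of the leading-strand polymerase. On its brightest probe (chr12:131719046-131719105, NCBI36, minus strand) the log2 ratio was -0.66, -0.70 and -0.66 for miR-181d and -0.60, -0.64 and -0.40 for miR-629*. The means were -0.67 (standard error 0.14, adjusted p = 0.0259) and -0.55 (standard error 0.14, adjusted p = 0.034). This probe was dim, at a knocked-down signal of 115 to 139 in the 5 groups. A still dimmer probe of POLE that passed the filter, with a mean signal of 19.6, went the opposite way, at 0.45 for both miRNAs (adjusted p = 0.225 and 0.178) and 0.87 for miR-565 (adjusted p = 0.0259). With the background of the scanner values modeled again, the brightest probe had log2 ratios of -0.43 for miR-181d and -0.36 for miR-629* and was still called. The mean of its probes was -0.11 for miR-181d and was not called. The direction of POLE therefore depended on the probe.

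Members of the lagging-strand machinery were also among those called. FEN1, the flap nuclease that trims Okazaki fragments, had log2 ratios of -0.37, -0.43 and -0.21 for miR-574-3p, with a mean of -0.34 (standard error 0.065, adjusted p = 0.0157). For miR-565 the values were -0.25, -0.23 and -0.25, with a mean of -0.24 (adjusted p = 0.038). The second FEN1 probe gave -0.25 for miR-574-3p (adjusted p = 0.028) and -0.18 for miR-565 (adjusted p = 0.0533). LIG1, the ligase that seals the fragments, was called for miR-629* alone, at -0.29, -0.26 and -0.21 (mean -0.25, adjusted p = 0.0469), and the RPA genes, which coat single strands, were not called on 15 arrays.

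E2F3, itself an activator of this program, had log2 ratios of 0.34, 0.22 and 0.27 for miR-181d (mean 0.28, standard error 0.061, adjusted p = 0.0305). Its ratio was positive on all 15 arrays, down to 0.04 on 1 array of miR-766. CDC45L, which activates the helicase, was called lower for miR-565 at -0.26, -0.12 and -0.14 (mean -0.17, adjusted p = 0.0498). Without replicate 1 of miR-565 its adjusted p was 0.061. CDC25A, the phosphatase that activates cyclin E-CDK2, was called lower for miR-574-3p at -0.23, -0.35 and -0.28 (mean -0.29, standard error 0.074, adjusted p = 0.0494). Its dimmer probe gave a mean of -0.2 and was not called (adjusted p = 0.41). E2F1 and E2F2 had means between -0.21 and 0.13 and were not called on 15 arrays, whereas on 14 arrays E2F1 was called lower for miR-574-3p (-0.21, adjusted p = 0.00131) and miR-565 (-0.13, adjusted p = 0.0491).

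**Figure D2:**
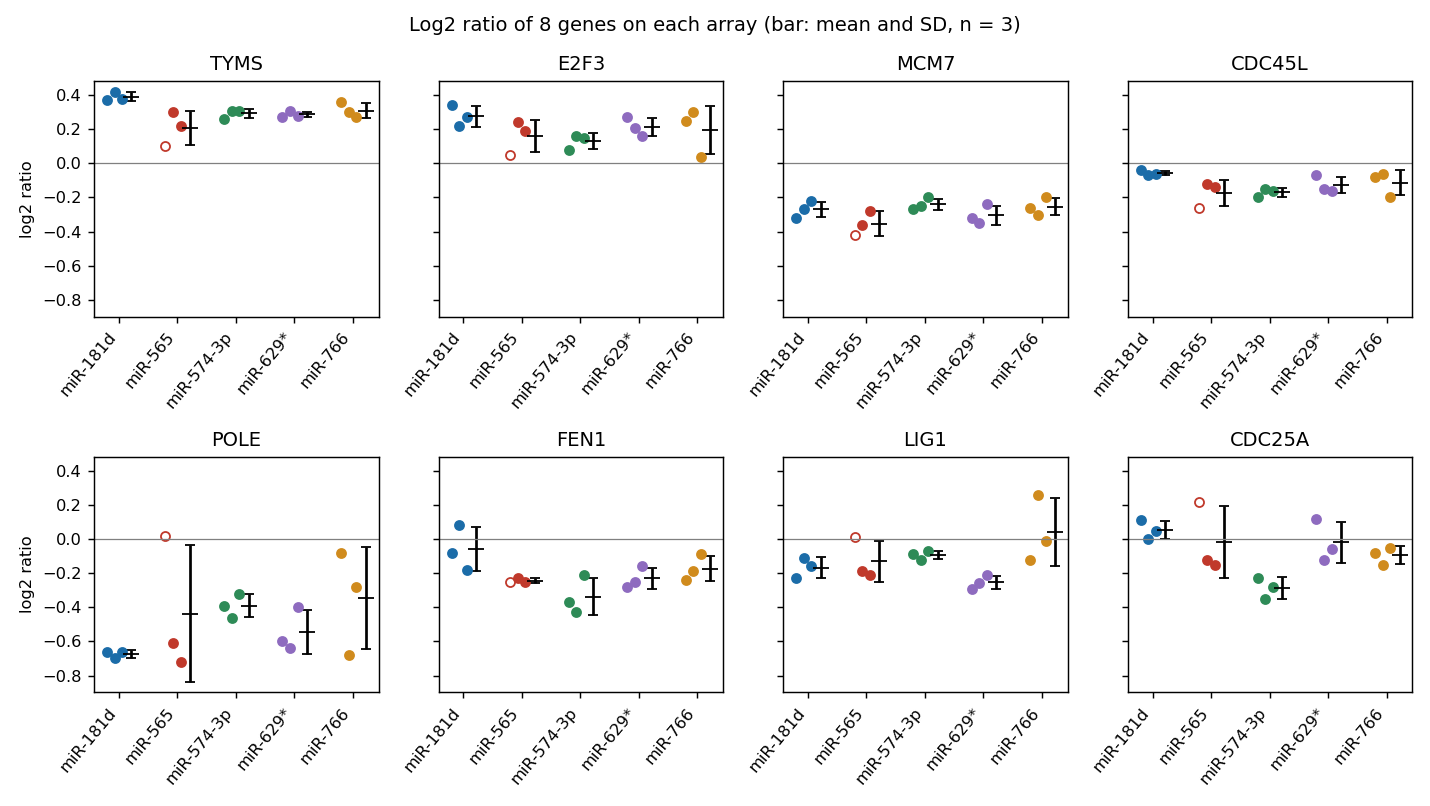
Log2 ratio (y axis) of the 8 genes called for at least 1 miRNA, on each array (points, by miRNA on the x axis), with the mean and SD of 3 arrays beside them; the open circle is replicate 1 of miR-565. TYMS and E2F3 lie above 0 and MCM7 and CDC45L below 0 on all 15 arrays, while the 3 miR-574-3p arrays of CDC25A lie between -0.35 and -0.23.

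The same sign on every array was not rare among genes in general. TYMS and E2F3 were higher on all 15 arrays, 2 of 47 members, where 6.09% of all genes were. MCM7, CDC6, CDC45L and TK1 were lower on all 15, 4 of 47 members, where 2.42% of all genes were. On the 14 arrays without replicate 1 of miR-565, CDC7, DBF4, POLA1 and RPA1 joined the higher genes, 6 of 47 (10.8% of all genes). CDT1, POLD1 and POLE joined the lower ones, 7 of 47 (6.25% of all genes). A sign shared by all arrays can come from the treatment or from the dye, which cannot be told apart here.

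Leaving out replicate 1 of miR-565 changed the calls of all 5 miRNAs, whose fits share an estimate of the spread. It also moved the means of miR-565 itself: E2F1 went from a log2 ratio of 0.09 to -0.13, and CDC7 from -0.27 to 0.15 (adjusted p = 0.0301 on 14 arrays). Then 30 of the 47 genes were called for at least 1 miRNA. The matching share of all genes was not computed, but for miR-629* alone 33.9% were called in either direction. For miR-181d, 12 members were higher and 6 lower (15.5% and 10.7% of all genes). For miR-565 there were 3 and 8 (8.51% and 5.28%), and for miR-574-3p 2 and 10 (11.3% and 9.59%). For miR-629* there were 8 and 12 (20.5% and 13.4%), and for miR-766 6 and 8 (10.8% and 6.13%). As a share of the members, the lower calls were 12.8% to 25.5% and above the share of all genes for each miRNA. For miR-181d they were 12.8% against 10.7%. The higher calls were 4.26% to 25.5% and on either side of the share of all genes. The members were well above background in both channels on all 15 arrays, the genes compared on at least 3 arrays in either channel. The shares are therefore not matched for signal.

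**Figure D3:**
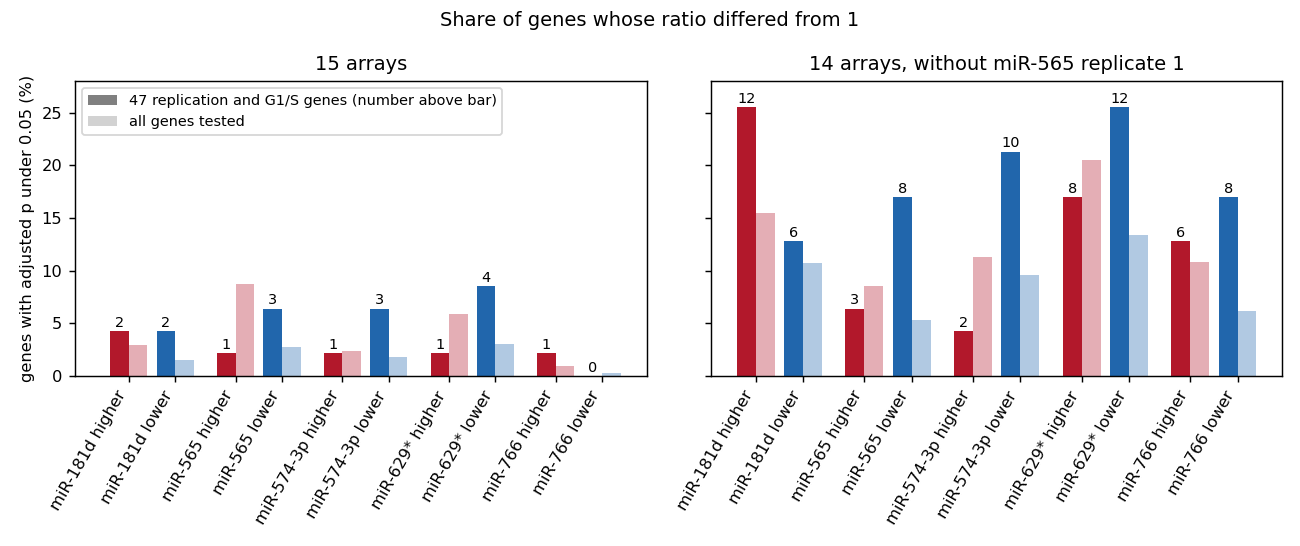
Percentage of genes with an adjusted p under 0.05 (y axis) among the 47 genes (dark bars, with their number) and among all genes tested (light bars), higher or lower in the overexpressing cells, for each miRNA (x axis). On 15 arrays the 47 genes reach 8.51% at most, and on 14 arrays 25.5%.

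On these 14 arrays, by their brightest probes, MCM7, CDT1, POLE and TK1 were lower for all 5 miRNAs (1.76% of all genes). TYMS was higher for all 5 (3.65%). The dimmer POLE probe went the opposite way and was called higher for miR-574-3p (0.68, adjusted p = 0.0111) and miR-629* (0.45, adjusted p = 0.0421). CDT1, which loads the helicase together with CDC6, had mean log2 ratios of -0.27 for miR-181d (adjusted p = 0.000754), -0.26 for miR-565 (adjusted p = 0.00495), -0.18 for miR-574-3p (adjusted p = 0.00461), -0.23 for miR-629* (adjusted p = 0.00123) and -0.22 for miR-766 (adjusted p = 0.00338). On replicate 1 of miR-565 it was 0.09. Its second probe was called for miR-181d (-0.26, adjusted p = 0.0131) and miR-565 (adjusted p = 0.0451). That probe was not called for miR-574-3p (-0.08, adjusted p = 0.41), miR-629* (-0.11, adjusted p = 0.213) or miR-766 (-0.11, adjusted p = 0.259). TK1, the salvage kinase of thymidine, lay between -0.23 and -0.14 on the 14 arrays by group mean, opposite in sign to TYMS, the enzyme of the other route to dTMP.

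By role, the groups were mixed in direction. Of the 6 polymerase genes, POLA1, the catalytic subunit of polymerase alpha, was higher for miR-181d (log2 ratio 0.27), miR-574-3p (0.16), miR-629* (0.22) and miR-766 (0.18) on 14 arrays. Its partner POLA2 was lower for the miRNAs other than miR-766 (-0.18 for miR-181d and -0.20 for miR-574-3p). For miR-629*, all 6 polymerase genes were called on 14 arrays on their brightest probes. POLA1 and POLE2 were higher and POLA2, PRIM1, POLD1 and POLE lower. The second POLD1 probe was not called (-0.05, adjusted p = 0.258), and the dimmer POLE probe was called higher (0.45, adjusted p = 0.0421). Of the 5 genes of the clamp and its loader, PCNA (0.16) and RFC3 (0.28) were called higher on 14 arrays for miR-181d and none for the other miRNAs. A dimmer RFC3 probe was not called for miR-181d (0.12, adjusted p = 0.125) but was for miR-629* (0.28, adjusted p = 0.00375) and miR-766 (0.21, adjusted p = 0.0234). SLBP, which binds histone mRNA, was the 1 called gene of the 4 chromatin and histone genes, at 0.13 for miR-181d (adjusted p = 0.0244). On their brightest probes, the ratios of 17 members were called for no miRNA on 15 or 14 arrays, a count without a computed share of all genes. Their mean log2 ratios ran from -0.72 to 0.2. The lowest was that of CCNE2 for miR-565 with replicate 1 included. They included MCM2, MCM5 and ORC1L, the clamp loader genes RFC2, RFC4 and RFC5, the ribonucleotide reductase genes RRM1 and RRM2, the chromatin assembly genes CHAF1A and CHAF1B, and CCNE2. MCM10, which joins the helicase at firing, was also among them, although its second probe was called higher on 14 arrays for miR-181d (0.21, adjusted p = 0.00554) and miR-629* (0.18, adjusted p = 0.0114).

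A ratio joins both channels of an array. To see which of them moved, the signal of a channel was set against the mean of the other 4 miRNAs in that channel. In the overexpressing channel no member was called for any miRNA, with or without replicate 1 of miR-565. Of all genes, with that array none were called for any miRNA but miR-766, a share of 0, and 0.295% for miR-766. Without it the shares were 0 for miR-181d and miR-629*, 0.00435% for miR-565, 0.0391% for miR-574-3p and 0.435% for miR-766. On all arrays, without the adjustment, 6 members had a p under 0.05 for miR-565, 1 for miR-629* and none for the others. Without that array these counts were 5, 0, 3, 3 and 2, in the numerical order of the miRNA names. No share of all genes was computed for them. For miR-181d, the median standard error of the members was 0.0793 on all arrays and 0.047 without that array. In the knocked-down channel it was 0.0459 and 0.0486. With that array the contrast between the channels is thus partly one of precision.

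In the knocked-down channel, 6 of the 47 genes were called for at least 1 miRNA. The matching share of all genes was not computed, but for miR-574-3p alone 8.54% were called in either direction. For miR-574-3p, CDC25A and E2F1 were higher and GINS1 and PRIM1 lower (4.33% and 4.21% of all genes). For miR-766, ORC6L, GINS1 and CDC6 were higher and none lower (2.03% and 2.23%). For miR-629*, PRIM1 was higher and none lower (0.63% and 0.248%), and for miR-565, ORC6L and PRIM1 were lower and none higher (1.67% and 1.12%). For miR-181d no member was called (1.06% in each direction), while 12 had an unadjusted p under 0.05, without a computed share of all genes. When replicate 1 of miR-565 was left out, the calls of members changed for miR-565 alone, where only ORC6L stayed lower. The shares of all genes higher and lower were then 0.439% and 0.595% for miR-565, and 0.648% in each direction for miR-181d. For miR-574-3p they were 3.83% and 3.68%, for miR-629* 0.465% and 0.152%, and for miR-766 1.57% and 1.6%. The comparisons between miRNAs share arrays, so that a high level in 1 group lowers the value of each other group.

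PRIM1, the catalytic subunit of primase, was highest in the cells with the miR-629* antagomir. Its normalized log2 signal was 11.40, 11.61 and 11.55 there and 11.04 to 11.36 on the other 12 arrays in the knocked-down channel, with no overlap. The shift was 0.35 (standard error 0.044, adjusted p = 0.000501) and remained called without any of the 3 arrays. In the overexpressing channel the shift was 0.01 (adjusted p = 1). Within slide 3, the knocked-down signal of the miR-574-3p array was lower than the mean of the 3 miR-629* arrays by a log2 difference of -0.34. The log2 ratio was -0.20, -0.56 and -0.51 (mean -0.42), not called on 15 arrays (adjusted p = 0.0864) but called on 14 (adjusted p = 0.00241).

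CDC25A was highest in the cells with the miR-574-3p antagomir. Its normalized log2 signal was 9.74, 9.73 and 9.71 there, above the 9.36 to 9.61 of the other 12 arrays. The shift was 0.26 (standard error 0.037, adjusted p = 0.000208), against -0.01 in the overexpressing channel (adjusted p = 0.994). The differences of the knocked-down signal within slides were 0.16 from miR-565 and 0.27 from miR-629*. A dimmer probe of CDC25A, with a mean signal of 89.5, had a shift of -0.01 (adjusted p = 0.957), so that the rise rested on the brighter probe. The dimmer probe was instead shifted by -0.28 for miR-766 (adjusted p = 0.0285), where the brighter one was at -0.08 (adjusted p = 0.208). E2F1 lay at 11.15, 11.15 and 11.16 in these cells and at 10.94 to 11.08 on the other 12 arrays, a shift of 0.15 (standard error 0.035, adjusted p = 0.0132). GINS1, a subunit of the GINS complex, lay lowest in them, at 7.47, 7.46 and 7.54 against 7.55 to 8.02 elsewhere, a shift of -0.27 (standard error 0.057, adjusted p = 0.00595). Within slides, however, its knocked-down signal differed by -0.23 from miR-565 and by only -0.04 from miR-629*.

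ORC6L, the smallest subunit of the origin recognition complex, lay at 13.50, 13.23 and 13.31 in the cells with the miR-766 antagomir. The other 12 arrays lay at 12.54 to 13.23, so that the groups touched at their edge. The shift was 0.43 (standard error 0.074, adjusted p = 0.00493). The second ORC6L probe, with a mean signal of 1480 against 7090, had a shift of 0.07 (adjusted p = 0.598). The miR-766 arrays occupy a slide of their own, so that slide and miRNA cannot be told apart for ORC6L, GINS1 (0.27, adjusted p = 0.0163) and CDC6 (0.17, adjusted p = 0.027) in these cells. COL1A1 (-0.35, adjusted p = 0.0158) and CD14 (-0.28, adjusted p = 0.0237), from the markers of other cell types, were lower in them, and their part in the result was not tested. The log2 ratios of ORC6L varied widely, at -0.70, -0.35 and -1.08 for miR-629*. Its brighter probe gave a mean of -0.71 there (adjusted p = 0.0627, and 0.012 on 14 arrays) and the second probe -0.17 (adjusted p = 0.404, and 0.305 on 14 arrays).

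**Figure D4:**
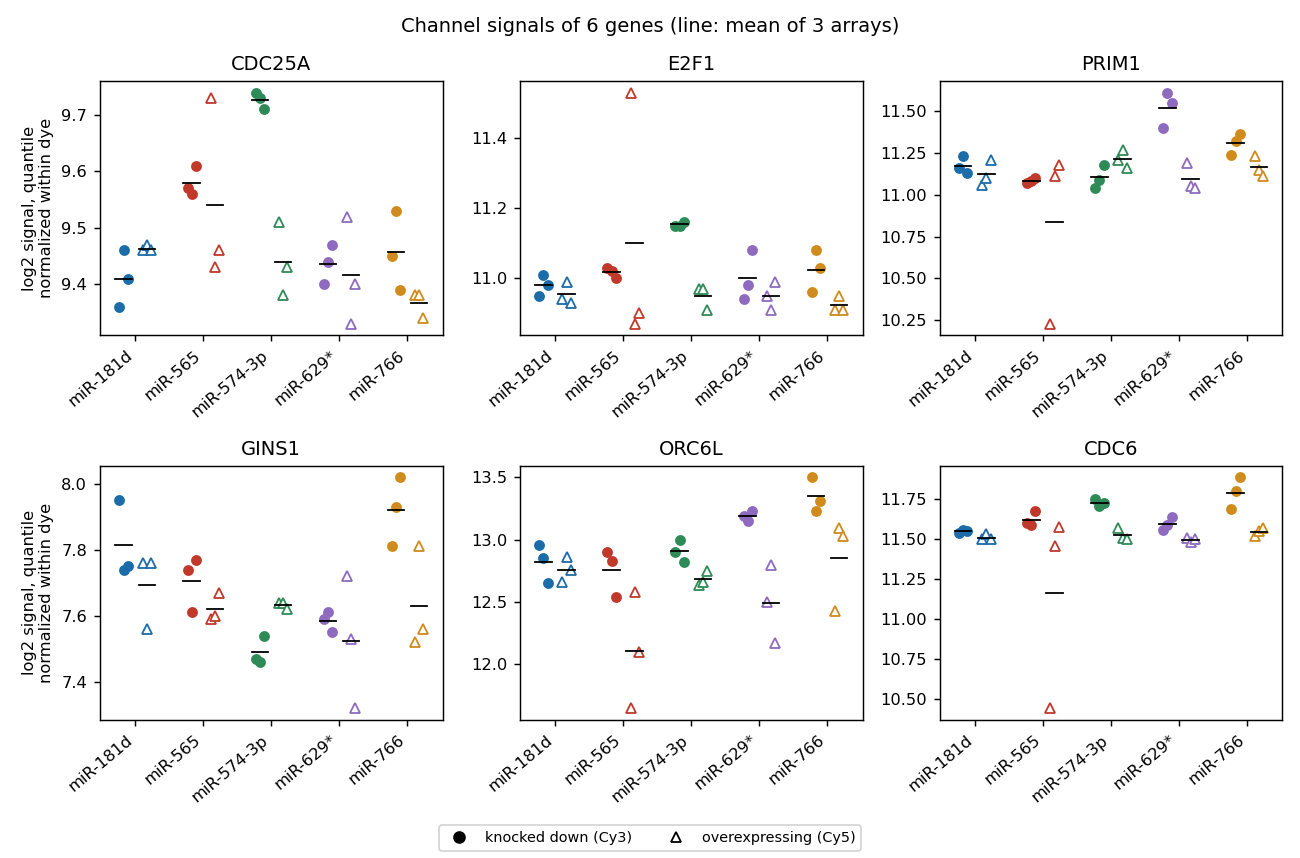
Log2 signal, quantile normalized within each dye (y axis), of the 6 genes called in the knocked-down channel, on each array of the 5 miRNAs (x axis); filled circles are knocked-down cells, open triangles overexpressing cells, and lines the mean of 3 arrays. The knocked-down cells of miR-629* lie apart for PRIM1 and those of miR-574-3p for CDC25A (9.71 to 9.74) and E2F1.

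The ratios of 1 miRNA were then set against the mean of the other 4, which removes any dye bias that the arrays share. On 15 arrays no member was called in any of these 5 differences. The share of all genes called was 0 for miR-181d and miR-766, 0.0913% for miR-565, 1.05% for miR-574-3p and 0.0391% for miR-629*. Without the adjustment, 3, 9, 3, 0 and 2 members had a p under 0.05, in the numerical order of the miRNA names. On 14 arrays CDC25A was called lower for miR-574-3p, with a log2 difference of -0.24 (adjusted p = 0.026). This call rested on its brighter probe. The log2 ratio of its dimmer probe was -0.2 for miR-574-3p (adjusted p = 0.152), within the range of the other miRNAs on 15 arrays (-0.25 to -0.12). No member was called in the other 4 differences. The shares of all genes were then 0.0913%, 0.135%, 4.64%, 0.196% and 0.0695% in that order. None of the 10 differences between pairs of miRNAs called a member on 15 arrays, with a smallest adjusted p of 0.258. Over all 10 pairs and 47 genes together, the count with an unadjusted p under 0.05 was 25. A share of all genes is not given for it or for the unadjusted counts by miRNA above.

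Replicate 1 of miR-565 carried the largest deviations of the 47 genes. In its overexpressing channel, 18 members lay more than 0.5 on the log2 scale from the mean of replicates 2 and 3, where 50.3% of all genes did. Of these, 14 were lower, led by CCNE2 at -1.33, RFC4 at -1.31 and CDC7 at -1.30, and 4 were higher, MCM5, ORC1L, POLE and E2F1. CCNE2 encodes cyclin E2 and RFC4 a clamp loader subunit. In the knocked-down channel no member lay so far, the range being -0.14 to 0.21. Within the ratio, CCNE2 was -1.79 on this array and -0.23 and -0.15 on the others. TYMS, MCM7 and FEN1 were not among the 18. Without this array the mean log2 ratio for miR-565 went from -0.72 to -0.19 for CCNE2 and from -0.67 to -0.34 for ORC6L. The knocked-down shift of PRIM1 was -0.19 both with it (adjusted p = 0.0293) and without it (adjusted p = 0.135).

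**Figure D5:**
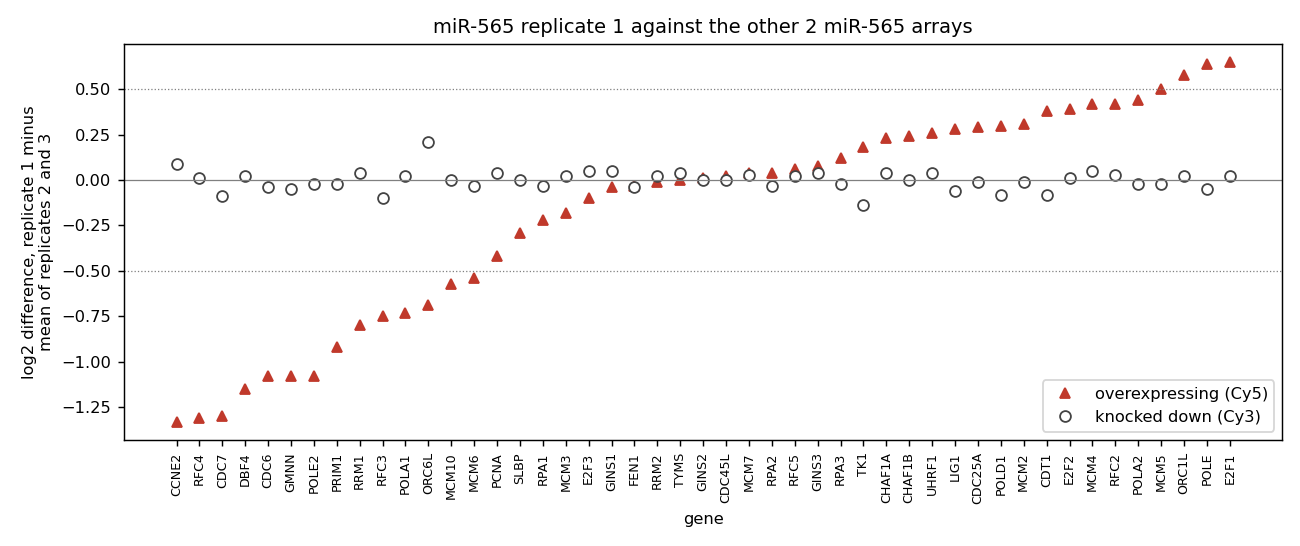
Log2 difference (y axis) between replicate 1 of miR-565 and the mean of replicates 2 and 3 for each of the 47 genes (x axis, in order of the overexpressing channel), after quantile normalization within each dye; dotted lines mark -0.5 and 0.5. Triangles (overexpressing) run from -1.33 to above 0.5, and circles (knocked down) from -0.14 to 0.21.

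Related lists place these values among neighboring genes. Of 34 other replication genes tested, 1 was called higher for miR-181d, miR-574-3p and miR-629* and 1 lower for miR-565 on 15 arrays. By miRNA, 0.917% to 8.69% of all genes were called higher and 0.23% to 3.02% lower. On 14 arrays the counts were 5 higher and 7 lower for miR-181d, 4 and 2 for miR-565, 5 and 5 for miR-574-3p, 5 and 8 for miR-629*, and 6 and 2 for miR-766. The shares of all genes called higher were then 15.5%, 8.51%, 11.3%, 20.5% and 10.8% in the same order. Those called lower were 10.7%, 5.28%, 9.59%, 13.4% and 6.13%. Among the 34 genes is MCM8, a helicase relative that works in recombination. On 15 arrays MCM8 had a log2 ratio of 1.37 for miR-574-3p (adjusted p = 0.000788), with a shift of -1.52 in the knocked-down channel (adjusted p = 8.54e-12). ASF1A, a histone chaperone, was higher for miR-181d (0.36, adjusted p = 0.0367) and miR-629* (0.39, adjusted p = 0.021), and TOP1, a topoisomerase, was lower for miR-565 (-0.47, adjusted p = 0.0395).

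Of 22 regulators around RB and E2F tested on 15 arrays, CDKN1B, the CDK inhibitor p27, was higher for miR-181d (0.24, adjusted p = 0.0293), miR-565 (0.40, adjusted p = 0.00288) and miR-629* (0.36, adjusted p = 0.00572). E2F8, a repressor of the E2F family, was higher for miR-574-3p (0.83, adjusted p = 0.000442) and for miR-629* (0.30, adjusted p = 0.05 after rounding). Its signal in the miR-574-3p antagomir cells was shifted by -0.59 (adjusted p = 0.000169). E2F5 was higher for miR-629* (0.23, adjusted p = 0.0242). CCND1, cyclin D1, was lower for miR-574-3p (-0.39, adjusted p = 0.0397). On 14 arrays these regulators gave 7 higher and 3 lower for miR-181d, 2 and 2 for miR-565, 5 and 3 for miR-574-3p, 7 and 2 for miR-629*, and 5 and 2 for miR-766. CDKN1B was then higher for all 5 (adjusted p = 0.00709 for miR-574-3p and 0.0168 for miR-766) and CCND1 lower for all but miR-629* (-0.19, adjusted p = 0.081). Of 25 G2/M genes on 15 arrays, CCNB1, cyclin B1, was called for miR-181d (0.19, adjusted p = 0.0417) and none for the other miRNAs. On 14 arrays, 5 were higher and 2 lower for miR-181d, 1 and 4 for miR-565, 3 and 1 for miR-574-3p, 3 and 5 for miR-629*, and 4 and 2 for miR-766. Beside the regulators and the G2/M genes, 0.917% to 8.69% of all genes were higher and 0.23% to 3.02% lower on 15 arrays, by miRNA. On 14 arrays these shares were 8.51% to 20.5% and 5.28% to 13.4%.

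Promoters were searched because members shared signs across miRNAs. RefSeq promoter windows (GRCh38.p14, 250 bases before to 50 after a start) were found for 42 of the 47 genes. The E2F motif was searched as TTTCCCGC or TTTGGCGC on both strands. The second of these overlaps its own reverse complement. A match was present for 22 of the 42 genes (52.4%), for 2 of 19 G2/M genes (10.5%) and for 2.75% of all 27305 genes with a window. Since the list was made of E2F targets, this share describes the list. Stretches of 30 bases before the start, with the motif in capitals, are shown for TYMS, MCM7, CDT1 and POLE. On their brightest probes these genes were called for all 5 miRNAs on 14 arrays. Stretches are also shown for E2F3, and for CDC25A and E2F1, which were higher in the miR-574-3p antagomir cells. They were chosen after these values were seen, and other called members with the motif, such as GINS1, CDC6, POLA1, CDC7, MCM6 and GINS2, are not shown.
TYMS (chr18:657603-657632, plus strand): gcgggacggccGCGGGAAAaggcgcgcgga
MCM7 (chr7:100101566-100101595, minus strand): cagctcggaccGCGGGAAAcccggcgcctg
CDT1 (chr16:88803743-88803772, plus strand): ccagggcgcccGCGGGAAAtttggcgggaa
POLE (chr12:132687343-132687372, minus strand): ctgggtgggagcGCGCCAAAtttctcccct
E2F3 (chr6:20401815-20401844, plus strand): ttgaaaagccgGCGGGAAAtccgagtttcg
CDC25A (chr3:48188443-48188472, minus strand): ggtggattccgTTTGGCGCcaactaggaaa
E2F1 (chr20:33686387-33686416, minus strand): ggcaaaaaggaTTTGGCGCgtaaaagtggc
The genes with higher ratios (TYMS, E2F3) and those with lower ones (MCM7, CDT1) hold the same letters in capitals. No stretch is shown for FEN1, TK1, PRIM1 and ORC6L, in whose windows these letters were not found.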

How the data were processed

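The members and the gene lists were chosen with earlier results of these data known. The authors deposited, for each of 15 dual-color arrays, the output of Feature Extraction 9.5.3.1 in which the processed signals are intensity values after background subtraction and dye normalization by that software. The deposited files also hold the mean signals and their backgrounds as intensity values, the log10 ratio of each spot and its error as a score, and the authors' p-values per spot, which were not used. The table of the series holds the same deposited log10 ratios. Arrays were grouped by the sample labels.

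From the deposited intensity values, log2 of Cy5 over Cy3 was taken in R 4.3.3. Control spots (1639 per array) and 2296 outlier spots over all arrays were dropped, no spot was saturated, and repeated spots were averaged. All arrays entered 1 model of limma 3.58.1 (lmFit, then eBayes with trend = TRUE) with 1 coefficient per miRNA. Adjustment for multiple tests was by Benjamini-Hochberg over 31345 probes, those that at least 3 arrays showed well above background in Cy5 or Cy3. Every adjusted p given is from limma. Each channel was quantile normalized within its dye and fitted in the same way. Values by array are given for up to 8 members called per miRNA in its ratio or difference, largest first, and up to 3 called genes are named per other list. Members called in a single channel or on 14 arrays were named after their values were seen. The fits were tested on simulated data with noise independent between arrays. Such data cannot show how a correlation within slides affects the calls.

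The alternatives were normexp (offset 50) with loess, median centering, the log10 ratios of the series table, an error-weighted mean, no intensity trend, replicate number or slide as a block, other filters on dim probes, each channel scaled to 1 median in place of quantile, the mean of the probes of a gene, and each array left out. The main fits did not pair arrays of different miRNAs by replicate number. Of 30 pairs of same-numbered arrays, 13 had deviations correlated above 0.1 (range -0.395 to 0.51). Without the same values for differently numbered arrays, a pairing is neither shown nor excluded. Probe positions are those of the files (NCBI36), and whether a probe lies in coding sequence or a UTR was not analysed here. Promoter and miRNA sequences are from RefSeq (GRCh38.p14), with CDC45L, ORC1L and ORC6L matched as synonyms.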

Additional observations from a re-analysis of the deposited data

How the results depend on the processing

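The 5 counts of called ratios (4, 4, 4, 5 and 1, in the numerical order of the miRNA names) depended on the arrays used. With each array left out in turn they ranged from 0 to 18, 3 to 11, 0 to 12, 0 to 20 and 0 to 14, the highest being those without replicate 1 of miR-565. Without replicate 2 of miR-565 its count was 8. Without any 1 of its own arrays, no member was called for miR-181d, miR-629* or miR-766. With the slide as a random block all 5 counts were 0. With normexp and loess they were 7 for miR-181d and 8 for miR-629*, and with median centering also 7 and 8. With the error-weighted mean they were 2, 7, 1 and 3 for the first 4 miRNAs, without a filter on dim probes 2 for each of miR-565, miR-574-3p and miR-629*, with the mean of the probes of a gene 3 for miR-629*, and without the intensity trend 2 for miR-766. The median log2 ratio of the members for miR-181d was 0.005, -0.002 and 0.011 with normexp, centering and the mean of probes (0.016 to 0.036 with arrays left out). For miR-565 it was -0.141, -0.159 and -0.08 (-0.1 to -0.052 with arrays left out). Centering moved the median ratio of all genes by at most 0.123, on replicate 1 of miR-565.

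The difference of miR-181d from the other miRNAs gave 1 member with the error-weighted mean and 19 with the slide block, and that of miR-574-3p 0 to 1 with arrays left out. The slide block gave 16 members for miR-181d in the overexpressing channel, and 17, 8 and 15 for miR-181d, miR-629* and miR-766 in the knocked-down channel, at an estimated correlation within slides of -0.226 there and 0.73 for the ratios. In the knocked-down channel, miR-565 gave 0 members with normexp, 0 without the trend and 0 to 1 with arrays left out, miR-574-3p gave 2 to 4 and miR-766 1 to 4. With the replicate number as a block, 4, 4, 4, 4 and 1 ratios were called, and the count of the knocked-down channel for miR-181d was 1 (ORC6L). The causes were not tested. For the ratios and knocked-down shifts of members called on 15 arrays, none of 336 alternative values was reversed, and 121 were no longer called. Among members not called on 15 arrays, several changed sign for miR-565 without its replicate 1, among them E2F1 (0.09 to -0.13) and CDC7 (-0.27 to 0.15). RFC4, GMNN, POLE2 and DBF4 lay at -1.37, -1.05, -1.03 and -1.01 on that array and above 0 on replicates 2 and 3. For miR-565, 12 members had a mean log2 ratio above 0 with that array and 17 without it. PRIM1 for miR-629*, CDC25A and GINS1 for miR-574-3p and ORC6L for miR-766 stayed called in the knocked-down channel without any 1 array of their miRNA, whereas E2F1 for miR-574-3p did not without any of the 3.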
